A study of Mus musculus with 4 samples.

Results

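MicroRNA genes were followed through gene lists from chromatin immunoprecipitation with sequencing (ChIP-seq) of kidney tubular cells of newborn mice. The members were the genes whose name in a list starts with Mir and a digit or with Mirlet7, host genes left out. They numbered 139 of the 8666 genes in the control and Foxp1KspKO lists together (1.6%), with 91 in the control list, 78 in the Foxp1KspKO list and 56 in a further list that the authors name as unique to the control.

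The groups were littermate controls and Foxp1KspKO mice, both neonatal, with 1 ChIP and 1 input library each. Foxp1 is a forkhead transcription factor that acts largely as a repressor, and Ksp refers to Ksp-cadherin (Cdh16), whose promoter drives Cre recombinase in renal tubule epithelium, so that other kidney cells keep the gene. Per the labels' protocols, perfused kidneys were digested with collagenase and passed through a 40 um sieve, chromatin was sheared to 150 to 300 bp, and a Foxp1 polyclonal antibody or rabbit IgG was added. In the labels the antibody entry of the control ChIP is rabbit IgG and that of the Foxp1KspKO ChIP is the Foxp1 antibody, whereas the sample descriptions give both ChIP libraries a FoxP1 prefix. The libraries are therefore called by the genotype in their titles, and no direction below can be tied to a settled antibody. The sources used here give neither the number of animals behind each library nor the alleles of the controls.

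The data consist of the authors' p-values, 1 for each listed gene, and each value in the authors' deposited table lies under 0.05. A lower p-value is a stronger call for that library. The lists hold no peak position, read count or fold enrichment, so the depth is unknown, and since each genotype has 1 ChIP library, differences between lists cannot be checked against replicates and were given no test. Neither Foxp1 nor Cdh16 was in the control or the Foxp1KspKO list, so the lists hold no value that checks the genotype. The lists hold no expression values either, so the labelled cell type could not be checked against its markers.

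A microRNA gene is transcribed as a longer primary transcript, from which the nuclease Drosha cuts a hairpin and Dicer then cuts the mature strand. The mature strand guides Argonaute to messenger RNAs that pair with its seed, the stretch from base 2 to base 8, and lowers their stability or translation. Many hairpins lie in clusters that are transcribed as 1 unit or inside introns of host genes. In the kidney, microRNAs are known for roles in nephron formation, tubular differentiation, cyst growth and fibrosis.

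The listed members of the let-7 and miR-196 families are shown by their mature strands, since each family shares a seed and they hold 4 of the 5 lowest control values. The other one is Mir382. Sequences are from RefSeq for GRCm38.p6, with the seed in capitals. Hairpin positions are chr10:122985640-122985724 (minus strand) for Mirlet7i, chr16:77599657-77599750 (plus) for Mirlet7c-1, chr13:48536012-48536114 (minus) for Mirlet7d, chr6:52230081-52230165 (minus) for Mir196b and chr15:102973350-102973434 (plus) for Mir196a-2.
let-7i-5p: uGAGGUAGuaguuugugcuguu
let-7c-5p: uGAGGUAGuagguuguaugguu
let-7d-5p: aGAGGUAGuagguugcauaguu
miR-196b-5p: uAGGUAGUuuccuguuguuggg
miR-196a-5p: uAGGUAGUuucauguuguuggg

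Counting from 1 at the 5′ end, let-7c-5p differed from let-7i-5p by U12G, G17A, C18U and U19G, and let-7d-5p by U1A, U12G, U16C, G17A, C18U and U19A. The mature miR-196a-5p differed from miR-196b-5p by C12A alone. The let-7 and miR-196 seeds share a run of 6 bases, AGGUAG, at bases 3 to 8 of let-7i-5p and 2 to 7 of miR-196b-5p. The gene behind the lowest member p-value, Mirlet7i, has the hairpin below, with both mature strands in capitals.
Mirlet7i hairpin: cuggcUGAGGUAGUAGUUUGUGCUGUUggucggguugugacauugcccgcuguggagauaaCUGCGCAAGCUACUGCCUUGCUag

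MicroRNA genes were a small share of each list. Of all 49997 annotated genes 13.6% were in the control list, 9.90% in the Foxp1KspKO list and 6.96% in the unique list. Of the 1180 genes that the RefSeq table names as microRNAs by the same name rule, 8.14%, 6.95% and 4.75% were there by gene number. Protein-coding genes were listed more often, 29.0%, 20.9% and 15.1%. An annotated microRNA gene spans a median of 81 bp and a member 84 bp, against 17146 bp for protein-coding genes. The sources used here do not state the region tested around each gene.

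Member calls were weaker by median than those of the whole list for both libraries. The median member p-value in the authors' deposited table was 0.00254 for the control ChIP, against 0.00116 over all its genes, and 0.00735 for the Foxp1KspKO ChIP, against 0.00533. The authors' deposited table put 34 of the 91 control members (37.4%) under 0.001, against 48.7% of all control genes. For the Foxp1KspKO ChIP the authors' deposited table put 24 of 78 members (30.8%) under 0.001, against 31.7% of its genes. The Foxp1KspKO shares were close at that limit but not at others. Under 0.01 the authors' deposited table put 53.8% of Foxp1KspKO members, against 60.5% of its genes, and 67% of control members, against 72.3%. Under 1e-05 these shares were 6.41% against 9.83% for the Foxp1KspKO ChIP and 16.5% against 25% for the control ChIP. Under 1e-10 the authors' deposited table held 5 control members (5.49%, against 7.47% of all control genes) and no Foxp1KspKO member (against 1.15% of its genes).

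**Figure D1:**
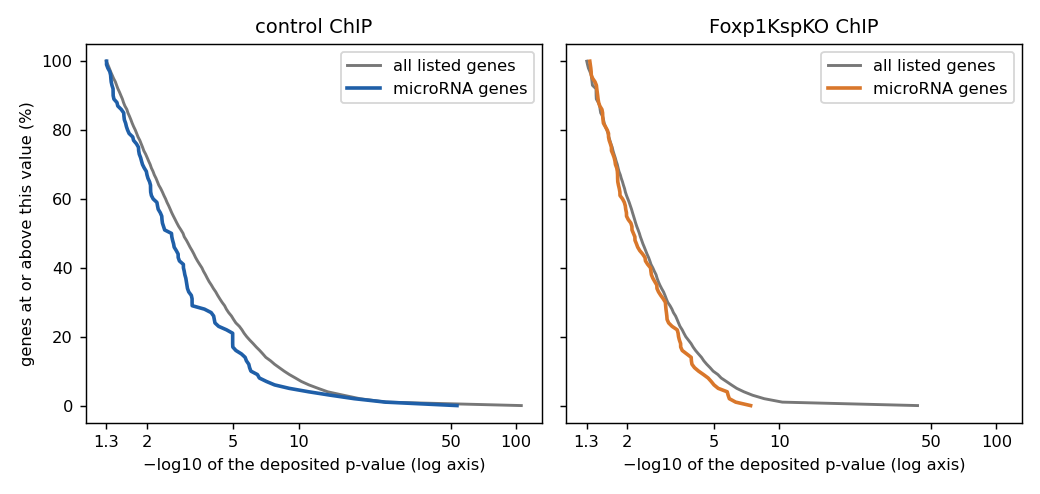
Share of genes (y axis, percent) at or above each −log10 p-value (x axis, log scale), for the control ChIP (left) and the Foxp1KspKO ChIP (right); the coloured line shows the microRNA genes and the grey line all genes of the same list. The control line for microRNA genes runs below the grey line over most of its range (medians 2.60 and 2.94), and the Foxp1KspKO lines lie closer together (2.14 and 2.27).

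Of the 139 members, 30 were listed for both libraries, 61 only for the control and 48 only for the Foxp1KspKO library. The shared members were 33.0% of the control and 38.5% of the Foxp1KspKO members. Of all annotated genes 6.17% were in both lists, and of annotated microRNA genes 2.80%. Over all genes the shared genes were 45.4% of the control and 62.3% of the Foxp1KspKO list. Among the 34 control members under 0.001, 14 (41.2%) were also in the Foxp1KspKO list, against 58.6% of all control genes under that limit. Among the 15 control members under 1e-05 the share was 66.7%, against 69.5% of all such control genes.

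Of the 30 shared members, the control library had the lower p-value for 16 and the Foxp1KspKO library for 14. Over all 3086 shared genes 71.4% had it in the control ChIP. On the −log10 scale 14 members were stronger in the control ChIP by more than 1, 7 were stronger in the Foxp1KspKO ChIP by more than 1, and 9 lay within 1.

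**Figure D2:**
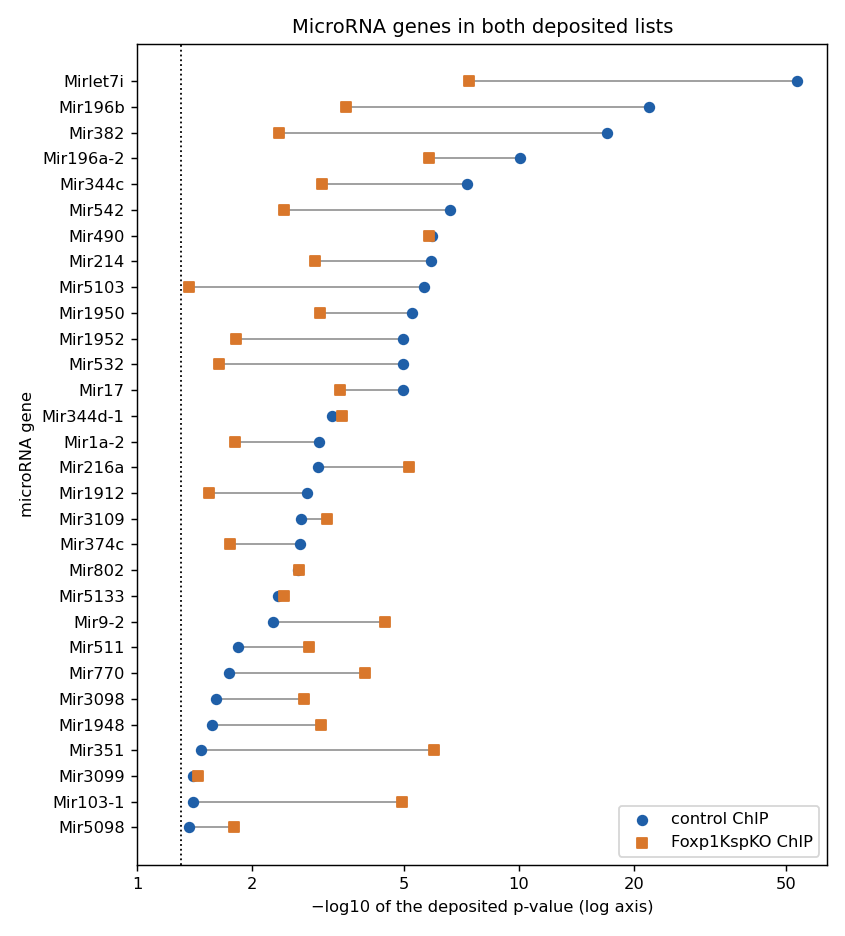
The 30 microRNA genes in both lists (y axis, sorted by the control value) with −log10 of the deposited p-value (x axis, log scale) for the control ChIP (circles) and the Foxp1KspKO ChIP (squares); the dotted line marks the 0.05 limit of the lists and each point is 1 library. Mirlet7i, Mir196b and Mir382 have the widest differences in favour of the control ChIP, and Mir351 and Mir103-1 lie far on the Foxp1KspKO side.

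Mirlet7i encodes let-7i, of the let-7 family that promotes differentiation and represses growth genes. It had 3.32e-54 for the control library and 4.08e-08 for the Foxp1KspKO library in the authors' deposited table, the lowest member value in each. These were rank 14 of 6799 control genes and rank 158 of 4953 Foxp1KspKO genes. The nearest protein-coding gene, Mon2 at 6335 bp, had 2.03e-08 for the control library in the authors' deposited table and was not in the Foxp1KspKO list. Mirlet7c-1 had 1.84e-13 for the control library in the authors' deposited table, and Mirlet7d had 8.48e-04 there. Neither was in the Foxp1KspKO list. The other 9 of the 12 annotated let-7 and miR-98 genes were in neither list.

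The Hox cluster microRNAs are transcribed among the Hox genes, and miR-196 is known to repress Hox messenger RNAs. Mir196b had 1.27e-22 for the control library and 3.02e-04 for the Foxp1KspKO library in the authors' deposited table. For Mir196a-2 the authors' deposited table gave 9.07e-11 and 1.50e-06. Mir10a (chr11:96317165-96317274) had 6.34e-04 for the control library in the authors' deposited table and was not in the Foxp1KspKO list. Mir10b, Mir196a-1 and Mir615, the other 3 of the 6 annotated genes, were in neither list.

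These values were not those of the Hox genes beside them. Hoxa10, 1031 bp from Mir196b, had 3.56e-14 and 0.0120 in the authors' deposited table. The authors' deposited table gave 2.12e-20 and 4.57e-05 for Hoxa9, at 2710 bp. Hoxc10, 1451 bp from Mir196a-2, had 5.96e-13 and 4.72e-07 in the authors' deposited table. Mir10a lies 992 bp from Hoxb4, whose values in the authors' deposited table were 1.89e-106 and 1.93e-14, and inside the annotated span of Hoxb3, which had 0.00437 in the control ChIP. In the same way Mir10b, in neither list, lies inside the spans of Hoxd4, in neither list, and Hoxd3, which had 7.25e-15 and 1.28e-05 in the authors' deposited table.

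The next shared members lie at separate loci. Mir382, of the imprinted Dlk1-Dio3 region (chr12:109733771-109733846, plus strand), had 9.16e-18 for the control library and 0.00452 for the Foxp1KspKO library in the authors' deposited table. It was the only one of 39 annotated hairpins of its cluster in the control list, and Mir410, with 3.55e-04 for the Foxp1KspKO library in the authors' deposited table, was the only other one listed. Mir344c, on chromosome 7, had 4.89e-08 and 8.82e-04 in the authors' deposited table. Mir542, on the X chromosome, had 2.46e-07 and 0.00379 in the authors' deposited table. Mir214, made from the Dnm3os transcript and known from skeletal development and fibrosis, had 1.32e-06 and 0.00121 in the authors' deposited table.

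Several shared members were nearly equal in the libraries. Mir490, inside the muscarinic receptor gene Chrm2, had 1.17e-06 for the control library and 1.50e-06 for the Foxp1KspKO library in the authors' deposited table. Its host Chrm2 had 0.0149 and 2.78e-05 in the authors' deposited table. Mir802 had 0.00233 and 0.00221, Mir5133 0.00462 and 0.00373, and Mir3099 0.0398 and 0.0363 in the authors' deposited table. Mir344d-1 had 5.84e-04 and 3.67e-04 there.

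Among the members with the stronger Foxp1KspKO call, Mir351 had 0.0340 for the control library and 1.03e-06 for the Foxp1KspKO library in the authors' deposited table. Mir103-1, inside the pantothenate kinase gene Pank3 and known from insulin signalling, had 0.040 and 1.15e-05 in the authors' deposited table. For Mir216a, a pancreatic microRNA, the authors' deposited table gave 0.00106 and 7.25e-06. Mir9-2, a hairpin for the neural miR-9, had 0.00546 and 3.43e-05 there. The authors' deposited table gave 0.0183 and 1.13e-04 for Mir770, inside the imprinted noncoding gene Meg3. The authors' deposited table gave Mir1948 0.0270 and 9.43e-04 and Mir3098 0.0246 and 0.00184.

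The remaining shared members had control values from 2.23e-06 for Mir5103 to 0.0433 for Mir5098 in the authors' deposited table. Their Foxp1KspKO values in the authors' deposited table ran from 4.05e-04 for Mir17 to 0.0433 for Mir5103. Besides these 3 they were Mir1950, Mir1952, Mir532, Mir1a-2, Mir1912, Mir374c, Mir3109 and Mir511, which lies in the macrophage receptor gene Mrc1. Mir3109, Mir511 and Mir5098 had the lower p-value for the Foxp1KspKO library in the authors' deposited table and the others for the control library.

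The strongest calls of the control list alone came after Mirlet7c-1 from Mir1895, with 9.25e-09 in the authors' deposited table. Mir1895 lies inside Cxxc4, a regulator of Wnt signalling, which had 2.91e-36 and 1.31e-04 there. Mir471 (3.14e-07), Mir741 (9.46e-07) and Mir465 (2.06e-06) in the authors' deposited table lie in 1 X-linked cluster of microRNAs known from the testis. Mir132, a neuronal microRNA regulated by CREB, and Mir547 had 1.08e-05 each in the authors' deposited table.

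Among the Foxp1KspKO list alone, Mir688 had 1.74e-05, Mir5135 6.78e-05, Mir199b 1.05e-04 and Mir695 1.16e-04 in the authors' deposited table. The 10 lowest Foxp1KspKO values of all members belonged to Mirlet7i, Mir351, Mir490, Mir196a-2, Mir216a, Mir103-1, Mir688, Mir9-2, Mir5135 and Mir199b. All 5 members under 1e-05 in the Foxp1KspKO list were also in the control list, against 82.5% of all Foxp1KspKO genes under that limit. Under 0.001 the direction was the other way, with 15 of 24 members (62.5%) against 75.7% of all such Foxp1KspKO genes.

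A set of 16 families known from kidney, epithelium, muscle, nerve, growth and Hox loci had 169 annotated members, of which 23 (13.6%) were listed for the control library and 15 (8.88%) for the Foxp1KspKO library. The large cluster inside Sfmbt2 gave 71 of the 169. Without it 23 of 98 (23.5%) and 13 of 98 (13.3%) were listed, against 8.14% and 6.95% of all annotated microRNA genes, which still include that cluster. The families were chosen with earlier results of these data known, so a higher share among them is no finding about the families.

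**Figure D3:**
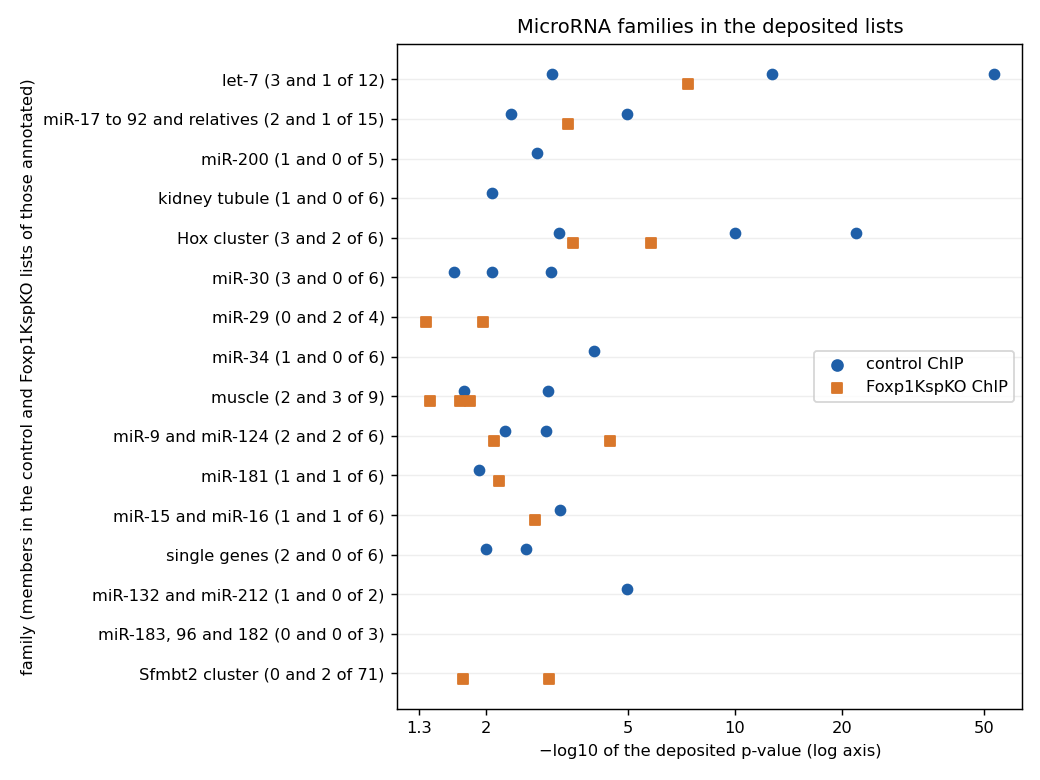
Members of the 16 microRNA families (y axis, with the numbers in the control and Foxp1KspKO lists of those annotated) by −log10 of the deposited p-value (x axis, log scale), control ChIP as circles and Foxp1KspKO ChIP as squares. The let-7 and Hox cluster families reach the highest values, miR-30 has 3 control points and no Foxp1KspKO point, and miR-29 has 2 Foxp1KspKO points and no control point.

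The miR-30 and miR-200 families and a group of kidney tubule genes had listed members for the control library alone. This is not particular to them, since 61 of the 91 control members were in that list alone. The miR-34 family and the miR-132 and miR-212 pair also had control calls only. The miR-30 family, abundant in renal tubules and podocytes, had 3 of 6 members listed for the control library and 0 for the Foxp1KspKO library. In the authors' deposited table Mir30a had 9.01e-04, Mir30b 0.00833 and Mir30c-2 0.0234, and Mir30a and Mir30c-2, 19361 bp apart on chromosome 1, share the seed.
miR-30a-5p: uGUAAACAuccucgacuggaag
miR-30c-5p: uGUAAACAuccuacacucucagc
The miR-200 family, which keeps epithelia from turning mesenchymal by repressing Zeb1 and Zeb2, had Mir200b alone of 5 members, with 0.00164 for the control library in the authors' deposited table. Of 6 kidney tubule genes (the miR-192, miR-194 and miR-215 group, Mir204 and Mir211), only Mir211 was listed, with 0.00831 for the control library in the authors' deposited table. Mir21a, known from kidney injury and fibrosis, had 0.00254 for the control library in the authors' deposited table and its host Vmp1 0.0195. Mir210, induced by hypoxia, had 0.010 for the control library in the authors' deposited table.

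Growth-related families had 1 or 2 listed hairpins each. In the miR-17 to 92 family and its relatives, known from cell proliferation and cystic kidney disease, Mir17 and Mir363 were listed of 15 members. Mir17 had 1.08e-05 for the control library and 4.05e-04 for the Foxp1KspKO library in the authors' deposited table, and Mir363 had 0.00449 in the control ChIP. Mir34b, of the p53-induced miR-34 family, had 9.52e-05 for the control library in the authors' deposited table. Mir15a, which shares its seed with Mir16-2, had 5.89e-04 for the control library in the authors' deposited table, and Mir16-2 had 0.00181 in the Foxp1KspKO ChIP. The same split by list held for Mir181a-2 (0.0123, control) and Mir181c (0.00678, Foxp1KspKO) in the authors' deposited table, which also share a seed.

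Families of other tissues were listed too. Of the 4 miR-29 genes, which repress collagen messenger RNAs, 2 were in the Foxp1KspKO list. These had 0.0111 for Mir29b-1 and 0.0442 for Mir29a in the authors' deposited table. The others, Mir29b-2 and Mir29c, were in neither list. Of the muscle genes, Mir1a-2, inside Mib1, had 0.00101 for the control library and 0.0157 for the Foxp1KspKO library in the authors' deposited table. Mir1b, whose annotated span covers that of Mir1a-2, had 0.0183 for the control library in the authors' deposited table. Mir1a-1 (0.0407) and Mir143 (0.0203), the latter of smooth muscle, were in the Foxp1KspKO list of the authors' deposited table. Of the neural genes Mir124a-2 had 0.00113 in the control ChIP and Mir9-1 had 0.00790 for the Foxp1KspKO library in the authors' deposited table. The Sfmbt2 cluster had 0 of 71 hairpins listed for the control library and 2 for the Foxp1KspKO library. In the authors' deposited table these were Mir669a-2 (9.90e-04) and Mir466o (0.0188). The miR-183, miR-96 and miR-182 genes were in neither list.

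Adjacent hairpins were compared, since those of 1 cluster can share a transcript. Of 178 pairs of adjacent annotated hairpins whose starts lie within 1 kb, 19 had at least 1 hairpin in the control list, and in 17 of these the other was missing. In the Foxp1KspKO list 16 pairs had at least 1, and in 14 the other was missing. Both were listed in 2 of the 19 control pairs (10.5%) and 2 of the 16 Foxp1KspKO pairs (12.5%). These include overlapping annotations, Mir1b with Mir1a-2 in the control list and Mir374b with Mir374c in the Foxp1KspKO list. With 8.14% and 6.95% of annotated microRNA genes listed at all, a missing neighbour is the usual case. Those are shares per gene and no baseline for the shares of pairs, which rest on few pairs and were not tested. The Mir17 cluster spans 836 bp and holds 6 annotated hairpins, of which Mir17, the first, was listed. Of the Mir106a cluster of 6 hairpins in 875 bp, Mir363, the last, was listed. Mir200b was listed without Mir200a and Mir429, Mirlet7d without Mirlet7a-1 and Mirlet7f-1, and Mir99b without Mirlet7e and Mir125a.

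Listed hairpins of the same cluster differed in their values or in the list that held them. Mir221 had 2.67e-05 and Mir222, with the same seed and 599 bp away start to start, 0.0422 for the control library in the authors' deposited table. Both are known to repress the cell cycle inhibitor p27. Inside the calcitonin receptor gene Calcr, Mir489 had 7.01e-05 in the control ChIP alone and Mir653 0.0338 in the Foxp1KspKO ChIP alone of the authors' deposited table. In the X-linked cluster of Mir322, 7 hairpins in 6353 bp, only Mir351 and Mir542 were listed, each for both libraries. They went in opposite directions, since the control library gave the lower p-value at Mir542 and the Foxp1KspKO library at Mir351.

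Further clusters with more than 1 listed hairpin were spread over several loci. Mir217, in the cluster of Mir216a, had 0.00413 for the control library in the authors' deposited table, and Mir881, in the X-linked cluster of Mir465, had 5.89e-04. Mir374b had 0.0229 for the Foxp1KspKO library alone in the authors' deposited table. Its span on the minus strand covers that of Mir374c on the plus strand, which had 0.00217 and 0.0176 there. Inside the serotonin receptor gene Htr2c, Mir764 had 0.0399 for the control library in the authors' deposited table, and Mir1912 had 0.00164 and 0.0289. Of the 13 annotated miR-344 genes 5 members were listed for the control library. Besides Mir344c and Mir344d-1 these were Mir344e (9.27e-04), Mir344f (0.00576) and Mir344-2 (0.0149) in the authors' deposited table, none of them listed for the Foxp1KspKO library.

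**Figure D4:**
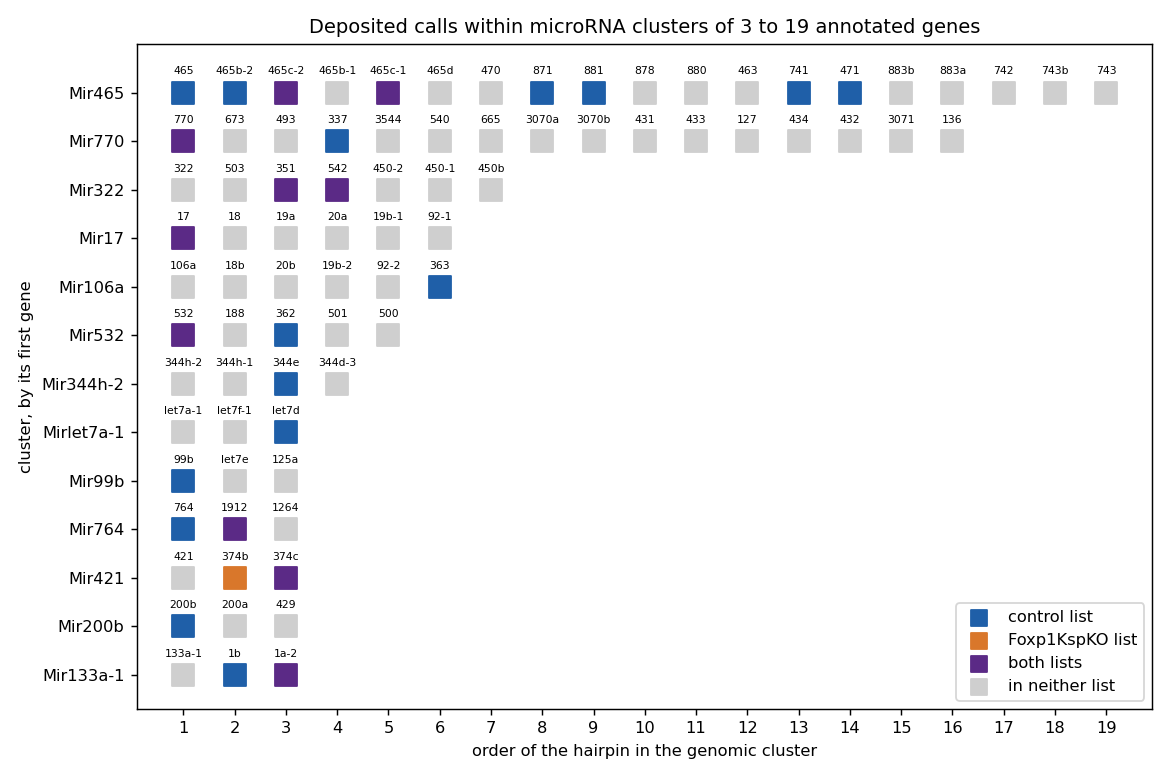
Annotated hairpins of each microRNA cluster of 3 to 19 genes with a listed gene, in their order (x axis; transcribed order, or order along the chromosome for the clusters of Mir770, Mir421 and Mir133a-1), 1 row per cluster (y axis, named by its first gene); the colour gives the list that holds the gene. In the Mir17, Mir106a, Mir200b, Mir99b and Mirlet7a-1 rows a single hairpin is coloured; the coloured squares of Mir465b-2, Mir465c-2, Mir465c-1 and Mir871 were matched by gene number and are not members by name.

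In 15 clusters of 3 or more hairpins on 1 strand, 6 of 16 control members were the first in transcribed order, 2 the last and 8 between. Of all 76 annotated hairpins in these clusters 19.7% were first, 19.7% last and 60.5% between. The Foxp1KspKO members numbered 5, with 2 first and 3 between. The 16 and the 5 count members by name, whereas the 76 count every annotated hairpin. By gene number Mir465b-2, Mir465c-2, Mir465c-1 and Mir871, all lying between, are also in the control list. Of these, Mir465c-2 and Mir465c-1 are in the Foxp1KspKO list too. A lean of control members towards the first place can thus not be read from these shares.

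No member had exactly the p-value of a gene within 100 kb, in either list. Equal values at distant genes were common, for 72.5% of control and 61.5% of Foxp1KspKO members, against 67.2% and 61.0% of all genes of the lists. Mir17, Mir132, Mir532 and Mir547, on 3 chromosomes, had the same control value of 1.08e-05 in the authors' deposited table, with 9 genes at that value in all. Ranks among such genes are arbitrary.

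Members overlapped protein-coding genes, on either strand, in 44 of 91 cases for the control list (48.4%) and 42 of 78 for the Foxp1KspKO list (53.8%). Of annotated microRNA genes 67.9% did. An overlapped gene is called a host here, without a check that the hairpin shares its strand or lies in its intron. The host was itself listed for 23 of the 44 control members (52.3%), against 41.6% for annotated microRNA genes that were not in that list. For the Foxp1KspKO list it was 9 of 42 (21.4%), against 23.5%. Each hairpin counts singly here, and Sfmbt2, which holds a large cluster, is itself in the control list alone. This cluster therefore raises the comparison share for the control list and lowers that for the Foxp1KspKO list. It has 71 annotated hairpins, 0 of them in the control list. No member had the same p-value as its host. Among the 23 control members with a listed host, 10 had a lower p-value than the host, and among the 9 in the Foxp1KspKO list 4 did.

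Named hosts went in both directions. Mir691 had 8.11e-05 and its host Robo2, an axon guidance receptor gene needed for ureter positioning, 2.05e-07 for the control library in the authors' deposited table. Mir532, inside Clcn5, a chloride transporter gene mutated in Dent disease, had 1.08e-05 and 0.0229 in the authors' deposited table, while Clcn5 had 0.0101 in the control ChIP alone. Mir546 was in the Foxp1KspKO list alone, with 0.0350 in the authors' deposited table, while its host Ctdsp2 had 1.01e-44 for the control and 2.69e-07 for the Foxp1KspKO library.

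Mature sequences were found for 122 of the 139 members, and 15 seeds were carried by 2 or more members, 28 members in all. Besides the let-7 group, the seeds GUCAGGC (Mir344-2, Mir344c and Mir344d-1) and AUAUAAC (Mir344d-1, Mir344e and Mir410) were each carried by 3 members. A mature sequence that is also annotated at another gene was found for 17 of the 122. The median hairpin GC content was 46.1% for members of the control list alone, 47.9% for shared members and 50.5% for those of the Foxp1KspKO list alone, over 51, 26 and 36 hairpins. It was 51.8% over 963 annotated hairpins.

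X-linked genes made up 16 of the 91 control members and 7 of the 78 Foxp1KspKO members. This was 17.8% and 7.78% of the 90 annotated X-linked microRNA genes, against 6.88% and 6.51% of the 1090 autosomal ones. Single autosomes ranged from 2.56% to 14.0% for the control and from 0% to 14.0% for the Foxp1KspKO list. Of the X-linked members 5 were listed for both libraries, 11 only for the control and 2 only for the Foxp1KspKO library. Genes of 1 cluster are not independent, and the X-linked control members include 4 of the cluster from Mir465 to Mir743. These counts are of members by name, whereas the 90 and the 1090 are all annotated genes. By gene number Mir465b-2, Mir465c-1, Mir465c-2 and Mir871 of that cluster are in the control list too, and Mir465c-1 and Mir465c-2 also in the Foxp1KspKO list.

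The authors' unique list held 54 of the 61 members of the control list alone and 2 shared members, Mir196b and Mir382. The other 28 shared members were not in it, Mirlet7i and Mir196a-2 among them. The 7 members of the control list alone that the unique list lacks were Mir691, Mir703, Mir3966, Mir21a, Mir378a, Mir5124a and Mir193a (11.5% of the 61, against 9.35% of all genes of the control list alone). Their control values in the authors' deposited table ran from 8.11e-05 for Mir691 to 0.0129 for Mir193a.

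Near the limit of the lists stood 8 control members (8.79%) and 5 Foxp1KspKO members (6.41%) from 0.04 to 0.05, against 4.60% and 7.69% of all genes of the lists. The members nearest to it in the authors' deposited table were Mir337 and Mir362, both at 0.0496 in the control ChIP, and Mir296, at 0.0452 in the Foxp1KspKO ChIP. Values above the limit were not analysed here.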

How the data were processed

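The authors deposited 3 gene lists with 1 p-value per gene. Per the submitters' processing notes, edgeR, deepTools, Bowtie2, Trimmomatic and FastQC were used, with builds GRCm38 and mm10, and no role or version is given. The sources used here do not say which test gave them, against which library or with what adjustment. Lists were assigned to libraries by sheet names that match the sample descriptions. Genes were matched on their NCBI numbers, and where a gene had several rows its smallest p-value was taken (Python 3.11.15, pandas 2.3.3). Coordinates, hosts and sequences come from the RefSeq tables for GRCm38.p6, 1-based, in which all 139 members were found. A cluster chains hairpins within 10 kb. Adjacent pairs within 1 kb, and the families miR-344, miR-221 and the X-linked cluster, were looked at after the values were seen. The planned promoter motif search was not run, since no member had a promoter in the table. Named genes are all shared members, the 10 lowest values per list, listed family members, listed members of clusters with 2 or more of them, and those nearest 0.05. Mir546, Mir547, Mir695, Mir99b, the added miR-344 members and those missing from the unique list were named after their values were seen. Members, families and tests were chosen with earlier results of these data known. No test between the libraries was possible, and counting was checked on a made-up gene table.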

Additional observations from a re-analysis of the deposited data

How the results depend on the processing

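No paired analysis was possible because each group held 1 library, and no replicate could be left out. Of 32 alternatives, 22 left a count within 1.5 times its value or a median the same to 3 digits, and 10 did not. With p under 0.001 required, 34 control, 24 Foxp1KspKO, 19 unique-list and 8 shared members passed. With p under 0.01 there were 42 Foxp1KspKO, 35 unique-list and 16 shared members. With 1 gene per cluster the median −log10 p was 2.40 for the control and 2.10 for the Foxp1KspKO members, and with members taken by RefSeq biotype it was 2.10 for the Foxp1KspKO members. Depth is unknown and sets which genes could reach the lists.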

Other observations

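A total of 6 annotated microRNA genes are in the lists under mmu-mir names, which the name rule leaves out, 5 in the control and 4 in the Foxp1KspKO list. By gene number, Mir465c-1 had 6.94e-05 for the control library and 0.0112 for the Foxp1KspKO library in the authors' deposited table, and Mir465c-2 had 0.0247 and 0.0234. Mir344d-2 had 0.00897 and 0.0112 in the authors' deposited table. Mir871 (4.23e-04) and Mir465b-2 (0.00137) were in the control list alone, and Mir683-1 (0.00112) in the Foxp1KspKO list alone of the authors' deposited table. With them, 8 of the 19 annotated genes of the X-linked cluster from Mir465 to Mir743 were in the control list, and 6 of the 13 miR-344 genes, of which 5 were there by name.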
